A study of Mus musculus with 18 samples.

Results

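The comparison described here is that of Kat7 knockout (KO) with wildtype (WT) medullary thymic epithelial cells that carry low surface MHC class II (mTEClo). It was made over all genes, between the 3 KO libraries (mouse pools 4, 5 and 6) and the 3 WT libraries (mouse pools 1, 2 and 3) of that subset, which are 6 of the 18 libraries of the series. The other 12 libraries are from MHC class II high medullary cells (mTEChi) and cortical cells (cTEC) of the same pools. All mice were C57BL/6 by the labels, and the cells were sorted from the thymus. Not given in the sources used here are the age of the mice, the deleted exons of Kat7 and the cells or promoter that carried the deletion. WT and KO pools were different mice, so any batch of mice, sort or library that ran with the genotype cannot be told apart from it.

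Kat7, also called HBO1, is a histone acetyltransferase that works in complexes with scaffold proteins of the JADE and BRPF families and modifies histones H3 and H4 at genes and replication origins. Thymic epithelial cells are the stroma in which T cells mature. Medullary cells show developing T cells a wide set of antigens of other organs, in part through the regulator Aire, which marks mTEChi. The mTEClo sort holds a mixture. It contains immature cells that attract thymocytes with the chemokine CCL21, and cells past the Aire stage that resemble epithelia of other organs, such as tuft cells, keratinocytes, mucus cells and neuroendocrine cells. Levels below are bulk values of a sort, in which fewer cells of a type and less RNA per cell cannot be told apart.

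Levels are CPM, the counts of a gene scaled to the size of its library after TMM normalisation. Mean values carry the SD over the 3 libraries of a group. Log2 fold changes are KO relative to WT with their SE, and a gene is called higher or lower in the KO where its adjusted p from edgeR was below 0.05 over 19364 genes. The 3 WT libraries held 6565309 to 9815559 counts and the 3 KO libraries 14411708 to 19356071, so the KO libraries were the deeper ones. Kat7 itself (chromosome 11, 95271853 to 95310246) was at 57.6, 38.6 and 43.1 CPM in WT pools 1 to 3 and at 1.96, 0.958 and 0.765 CPM in KO pools 4 to 6, which were 61 reads over the 3 KO libraries. The groups did not overlap, with a log2 fold change of -5.28 ± 0.29 (SE) and adjusted p = 1.8e-10. Epithelial identity was present in both groups. Epcam, an epithelial adhesion molecule, was at 1223 ± 61.2 CPM in the WT and 1528 ± 73.3 CPM in the KO, and the basal keratin Krt14 was at 1717 ± 113 and 1775 ± 160.5 CPM. The subset label also held in the WT, where Aire was at 37.6 ± 18.8 CPM in mTEClo and 1184 ± 75.7 CPM in mTEChi, and the MHC class II gene H2-Aa was at 2205 ± 95.5 and 7557 ± 328 CPM. Aire was not called in mTEClo, with 27.3, 26.2 and 59.3 CPM in the WT and 55.1, 38 and 24.8 CPM in the KO (adjusted p = 0.90).

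Of the genes tested, 6712 were called, which is 34.7% (3657 higher, 18.9%, and 3055 lower, 15.8%). The surplus of higher genes turned under other scalings (3256 higher and 3374 lower under RLE). Among changes of at least 2-fold there were more falls than rises, with 1614 genes lower (8.34%) and 1163 higher (6.01%). At 4-fold or more the numbers were 721 lower (3.72%) and 364 higher (1.88%). The libraries of the groups did not overlap in CPM for 9537 genes (49.3%). The share called depended on level. When genes were ranked by level into 5 classes of equal size, 35.7% of the most abundant class were higher and 17% lower, and 3.38% of the least abundant class were higher and 8.93% lower. Of 1041 long noncoding RNA genes tested 6.05% were higher and 14.6% lower, against 20.6% and 16% of 17072 protein-coding genes. The first principal component of the 6 libraries held 64.6% of their variance and separated KO (-64.27 to -59.11) from WT (48.68 to 67.35). The second held 12.36% and set WT pool 2 (-43.19) apart from WT pool 3 (49.06). The share of counts on mitochondrial genes was 2.48% ± 0.484 in WT and 1.51% ± 0.146 in KO, on the ribosomal RNA gene Rn45s 1.11% ± 0.128 and 0.359% ± 0.0568, and on Lars2 3.04% ± 0.68 and 1.23% ± 0.213. Each of these 3 shares gave p = 0.1 in a two-sided exact permutation test, the smallest that 3 against 3 libraries allow. Their part in the results below was not tested. Leaving these genes and the heat shock genes out of the library totals gave 3765 genes higher and 2962 lower. That refit changes the scaling alone, so it is no test of RNA quality in the other genes.

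**Figure D1:**
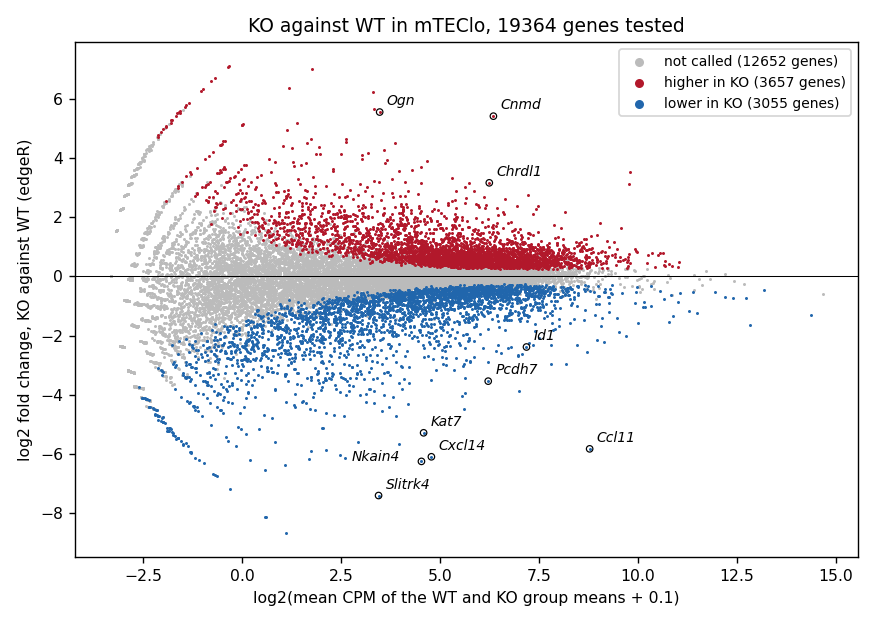
Fold change against level for the 19364 genes tested in mTEClo. Each point is 1 gene, the horizontal axis is the log2 of its mean CPM and the vertical axis its log2 fold change in KO against WT; red and blue points are the 3657 genes higher and the 3055 genes lower in KO, and 10 genes named in the text are ringed. The called genes reach further down than up, and Ccl11 and Cnmd stand out at high levels.

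The 12 most raised genes by fold came from many tissues. They were taken from genes called, not overlapping between groups and at 5 CPM or more in the KO. Predicted genes, Xist and genes on chromosome Y were left out. Ogn encodes osteoglycin, a small proteoglycan of connective tissue. It was at 0.715, 0.518 and 0 CPM in the WT and 21.6, 19.7 and 23.5 CPM in the KO (log2 fold change 5.56 ± 0.36, adjusted p = 1.0e-09). Cnmd encodes chondromodulin, a cartilage glycoprotein that restrains vessel growth. It rose from 4.70, 4.14 and 1.93 CPM to 172, 158 and 146 CPM (5.42 ± 0.21, adjusted p = 1.9e-12). That the KO libraries of these 2 genes lay above the WT libraries was required by the choice. Both genes had little spread among the KO pools. Dcpp3, a salivary secretory gene with near-identical neighbours among which reads are uncertain, was at 0.204, 0.389 and 0.595 CPM in WT and varied among the KO pools (6.83, 16.7 and 34.6 CPM). Spink8, a protease inhibitor of the Kazal family, also varied among the KO pools, at 7.30, 41.6 and 33.8 CPM against 1.02, 0.777 and 1.93 CPM in WT. The others were Fmo6, a flavin monooxygenase (0.469 ± 0.381 against 11.7 ± 2.34 CPM), Kcnj1, a renal potassium channel (0.220 ± 0.263 against 6.24 ± 2.0 CPM), and Orm3, an acute-phase plasma protein (0.485 ± 0.176 against 11.7 ± 3.76 CPM). Ntrk2, the receptor of brain-derived neurotrophic factor, was even among the KO pools at 7.03, 7.10 and 7.29 CPM against 0, 0.518 and 0.595 CPM. Saxo1 (0.204 ± 0.354 against 5.78 ± 1.58 CPM), Armh4 (1.16 ± 0.359 against 22.4 ± 0.645 CPM), Stk31 (0.361 ± 0.391 against 6.72 ± 1.01 CPM) and the homeobox gene Msx3 (0.619 ± 0.500 against 10.4 ± 2.37 CPM) completed the 12. The log2 fold changes of the 12 ran from 4.13 (Msx3) to 5.67 (Dcpp3).

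The 12 most lowered genes by the same rule ran from -5.11 (Capn6) to -7.40 (Slitrk4) and included Kat7. Slitrk4, a transmembrane protein of neurons, was at 23.1, 23.3 and 17.8 CPM in the WT and 0.270, 0.113 and 0 CPM in the KO, which were 6 reads in all (adjusted p = 1.4e-08). Nkain4, a membrane protein that binds the sodium pump, fell from 45.4, 53.9 and 36.7 CPM to 0.203, 0.620 and 0.867 CPM. The chemokine genes Cxcl14 and Ccl11 were among the 12 and are described below. Genes of the nervous system were represented by the receptor Gpr139 (11.6 ± 0.834 against 0.165 ± 0.145 CPM) and by Brinp1 (10.6 ± 0.479 against 0.141 ± 0.190 CPM). Mical1, an enzyme that oxidizes actin, was at 8.17, 5.31 and 5.06 CPM in WT and held 4 reads in the KO. Adamts3, a procollagen protease (6.34 ± 0.510 against 0.0978 ± 0.0396 CPM), the engulfment adaptor Gulp1 (14.6 ± 2.03 against 0.299 ± 0.131 CPM), Zfp660 (8.36 ± 0.462 against 0.132 ± 0.0829 CPM) and Capn6 (7.81 ± 0.908 against 0.229 ± 0.208 CPM) made up the rest. The rule required that KO and WT libraries not overlap, so a spread that is small beside the fall was favoured by the choice. The WT pools of some genes were even (Zfp660, 8.36 ± 0.462 CPM) and those of others less so (Mical1, 8.17, 5.31 and 5.06 CPM).

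The strongly changed genes differed from the others in a feature of their promoters that the calls did not use. CpG dinucleotides were counted in the 300 bases from 250 before to 50 after the start of each protein-coding gene, from RefSeq on GRCm38.p6, where 13561 of the 17072 genes tested had a window. Where a gene had several windows their mean was used. Among the 9845 of them at 5 CPM or more in the higher group, the median was 20.5 CpG. Genes higher by at least 4-fold had a median of 7 CpG (120 genes) and genes lower by at least 4-fold a median of 9 (194 genes), and 43.3% and 47.4% of them had 10 CpG or more, against 82.7% of all. Genes called with less than a 2-fold change had medians of 21 CpG in both directions, the same as the genes that were not called. The motif TATAAA, searched on both strands, lay in 9.34% of all these windows, in 24.2% of those of genes higher by at least 4-fold and in 17.5% of those lower by at least 4-fold. For 57.0% of the genes with a window the starts lay within 50 bases of the gene's first base in the RefSeq gene table, and other windows can lie inside the gene. With those genes alone, a choice made after the data were seen, the medians were 6 CpG for genes higher by at least 4-fold (65 genes), 8 for genes lower by at least 4-fold (101 genes) and 20 for all. These are descriptions of sequence, and beyond the minimum of 5 CPM the classes were not matched on level.

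Upstream sequences of 4 strongly changed genes are printed to show promoters with few CpG, chosen after their values were seen. Each is the 250 bases before the start in the RefSeq promoter table, 5′ to 3′ along the gene on GRCm38.p6, with every CpG in capitals. Cnmd (chr14:79662184-79662433 on the minus strand) and Ogn (chr13:49607765-49608014 on the plus strand) are raised genes, and Ccl8 (chr11:82114935-82115184 on the plus strand) and Ccl20 (chr1:83116516-83116765 on the plus strand) are lowered genes.
Cnmd: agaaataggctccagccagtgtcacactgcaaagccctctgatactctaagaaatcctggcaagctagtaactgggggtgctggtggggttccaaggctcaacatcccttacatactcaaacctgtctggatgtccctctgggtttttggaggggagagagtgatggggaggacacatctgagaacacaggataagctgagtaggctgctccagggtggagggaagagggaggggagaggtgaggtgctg
Ogn: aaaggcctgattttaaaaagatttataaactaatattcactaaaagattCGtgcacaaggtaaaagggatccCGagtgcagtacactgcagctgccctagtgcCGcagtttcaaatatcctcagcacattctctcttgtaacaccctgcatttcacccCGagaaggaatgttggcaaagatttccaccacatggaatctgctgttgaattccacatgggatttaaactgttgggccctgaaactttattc
Ccl8: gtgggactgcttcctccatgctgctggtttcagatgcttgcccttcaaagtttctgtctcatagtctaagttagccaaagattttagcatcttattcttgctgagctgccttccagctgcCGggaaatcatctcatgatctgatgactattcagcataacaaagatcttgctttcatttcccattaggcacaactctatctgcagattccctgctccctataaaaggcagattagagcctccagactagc
Ccl20: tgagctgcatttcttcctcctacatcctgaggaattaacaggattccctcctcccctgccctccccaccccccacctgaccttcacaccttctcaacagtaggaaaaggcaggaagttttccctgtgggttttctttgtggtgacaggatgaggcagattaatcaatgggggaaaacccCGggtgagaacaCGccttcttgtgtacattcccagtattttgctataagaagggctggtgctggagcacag
Over the whole 300 bases Cnmd held 1 CpG, Ogn 4, Ccl8 2 and Ccl20 3, of which 0, 4, 1 and 2 lie in the stretches printed. The start used for Cnmd lies a few bases inside the bound of the gene in the RefSeq gene table, and the starts of the other 3 are at that bound. Ccl8 has a TATAAA match that starts 32 bases before its start site.

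Chemokine genes were lower in many members. Chemokines are secreted proteins that attract cells, and in the medulla they draw thymocytes, dendritic cells and other leukocytes. Of 31 tested, 15 were lower and 6 higher, with a median log2 fold change of -0.77, beside 0.01 over all genes. The eotaxin Ccl11 was at 885, 1007 and 695 CPM in the WT and 15.8, 18.8 and 11.2 CPM in the KO, a log2 fold change of -5.82 ± 0.29 (adjusted p = 3.9e-11). Ccl7, a monocyte attractant, fell from 77, 119.7 and 84 CPM to 5.0, 3.60 and 4.03 CPM (-4.48 ± 0.27, adjusted p = 4.2e-10). Ccl2, the main monocyte attractant, was at 28.2, 45.3 and 28.1 CPM in the WT and 2.43, 2.82 and 3.11 CPM in the KO, and Ccl8 at 13.9, 22.1 and 18.4 CPM and 3.52, 5.97 and 2.85 CPM. WT pool 2 was the highest WT library for all 4 genes. In each gene the KO libraries lay wholly below the WT libraries, beside 49.3% of all genes whose groups did not overlap.

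These 4 genes are neighbours. Of the 6 tested genes that start between 82035577 and 82176666 on chromosome 11 (GRCm38.p6), in the order Ccl2, Ccl7, Ccl11, Ccl12, Ccl8 and Ccl1, these 4 were lower. Ccl12 (0.426 ± 0.307 against 0.0903 ± 0.0851 CPM, adjusted p = 0.22) and Ccl1 (0.779 ± 0.329 against 0.164 ± 0.180 CPM, adjusted p = 0.065) were at low levels and were not called, although Ccl1 was called lower with DESeq2 (adjusted p = 0.0112), without KO pool 6 (adjusted p = 0.027) and without WT pool 1 (adjusted p = 0.0497). Further along the chromosome Ccl6 (85.7 ± 27.5 against 18.9 ± 2.05 CPM), Ccl9 (55.6 ± 9.03 against 25.5 ± 3.55 CPM) and Ccl3 (7.20 ± 2.45 against 0.489 ± 0.268 CPM) were lower, while Ccl5 (7.93 ± 1.34 against 12.1 ± 0.416 CPM, adjusted p = 0.13) and Ccl4 (0.579 ± 0.403 against 0.544 ± 0.0767 CPM, adjusted p = 0.98) were not called. With only the 6 mTEClo libraries fitted, Ccl5 was called higher (adjusted p = 0.0317). This neighbourhood was looked at after the values were seen.

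The fall was not limited to that region. Cxcl14 on chromosome 13, an epithelial chemokine, was at 66.8, 48 and 46.7 CPM in the WT and 1.28, 0.789 and 0.357 CPM in the KO (-6.09 ± 0.42, adjusted p = 1.8e-09). Ccl20 on chromosome 1, which attracts cells that carry CCR6, was at 205, 215 and 292 CPM and 17.9, 19 and 12 CPM (-3.86 ± 0.29). The dendritic cell attractants Ccl22 (6.25 ± 1.88 against 1.48 ± 0.729 CPM) and Ccl19 (3.16 ± 1.17 against 0.391 ± 0.180 CPM) were lower too, as were the interferon-inducible Cxcl9 (43.3 ± 0.868 against 25.3 ± 3.47 CPM), Cxcl10 (680.4 ± 79.8 against 360.3 ± 9.72 CPM) and Cxcl11 (32.6 ± 6.77 against 19.4 ± 1.94 CPM). Cxcl16 was not called (162 ± 10.3 against 156 ± 3.06 CPM, adjusted p = 0.74). The 6 that rose were Ccl25 and Cxcl12, which are made chiefly by cortical cells, with Cxcl1, Cxcl3, Cxcl15 and Cxcl17. The calls of Cxcl1, Cxcl3 and Cxcl15 each rest on single libraries. Cxcl1 was not called without KO pool 5 (adjusted p = 0.090) or WT pool 2 (adjusted p = 0.096), Cxcl3 not without KO pool 5 (0.088), KO pool 6 (0.062) or WT pool 1 (0.17), and Cxcl15 not without KO pool 6 (0.064), WT pool 1 (0.078) or WT pool 2 (0.091). Cxcl17, a mucosal chemokine, rose from 13.4, 12.4 and 6.99 CPM to 26.4, 44.2 and 47.2 CPM (adjusted p = 4.6e-04), and Cxcl12 from 136, 134 and 116 CPM to 278, 250.4 and 248 CPM (adjusted p = 3.5e-06).

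**Figure D2:**
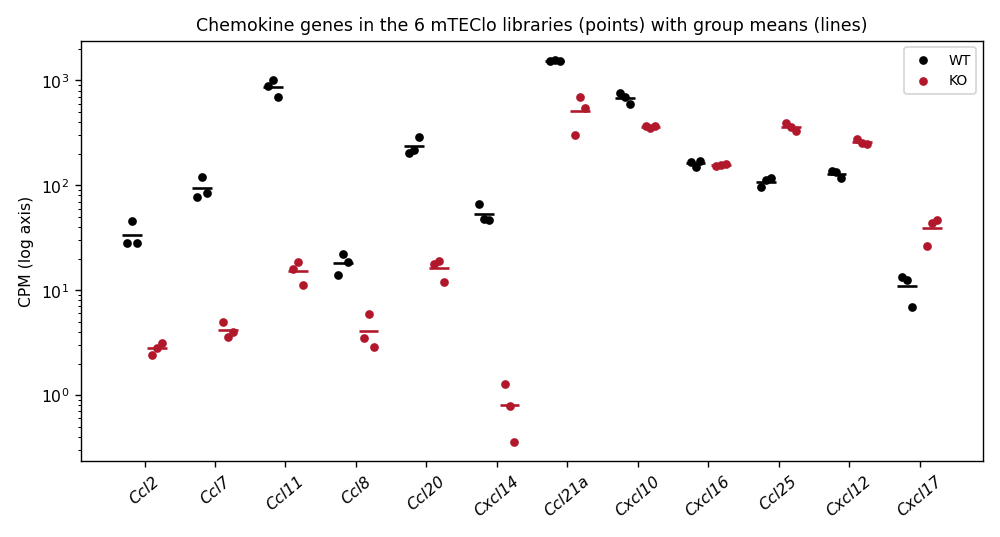
CPM of 12 chemokine genes in each mTEClo library, on a log axis. Points are single libraries (3 WT in black, 3 KO in red) and lines are group means; the KO points of the first 8 genes lie below their WT points, those of Cxcl16 overlap them, and those of Ccl25, Cxcl12 and Cxcl17 lie above.

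Of 24 cytokine genes 5 were lower (20.8%) and 3 higher (12.5%), with 1 higher without KO pool 6. These shares are near the 15.8% and 18.9% over all genes. Il23a fell from 68, 51.7 and 62.6 CPM to 19.7, 23.8 and 19.4 CPM (adjusted p = 1.8e-08), and Tnfsf10, which encodes the death ligand TRAIL, from 50.8, 53.9 and 47.1 CPM to 16.9, 17 and 15.6 CPM (adjusted p = 3.9e-08). Il12a (5.71 ± 2.54 against 1.13 ± 0.474 CPM) and Tnfsf13b, the B cell factor BAFF (3.85 ± 0.686 against 1.09 ± 0.561 CPM), were low in WT and lower in KO. Among 16 genes of the IL-6 family and its signalling, 5 were lower (31.2%) and 3 higher (18.8%, near the share over all genes). The receptor chains Osmr (191 ± 16.9 against 86.4 ± 7.22 CPM) and Il11ra1 (158 ± 9.49 against 57.3 ± 8.33 CPM) and the transcription factor Stat3 (332 ± 20.3 against 212 ± 29.2 CPM) were lower. The kinase Jak2 was higher, at 78.8 ± 2.10 CPM in the WT and 139 ± 6.35 CPM in the KO.

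Receptors and mediators that drive medullary maturation were lower by small amounts. Of 22 genes of the RANK, CD40, lymphotoxin and NF-kB pathways, 11 were lower and 2 higher (none without WT pool 2 or WT pool 3, and 1 without KO pool 6 or WT pool 1). The lower count was 6, 5 and 7 without KO pool 5, KO pool 6 and WT pool 2, so 1 library decides several of these calls. RANK itself (Tnfrsf11a) was at 193, 163 and 181 CPM in the WT and 145, 126 and 139 CPM in the KO (-0.39 ± 0.11, adjusted p = 0.011), and was not called without KO pool 5 (adjusted p = 0.059). Tnfaip3, an inhibitor of NF-kB that NF-kB itself induces, was at 158 ± 18.8 against 88.7 ± 1.06 CPM (adjusted p = 5.0e-04), and Nfkb1 at 114 ± 11.9 against 83.8 ± 8.29 CPM (adjusted p = 0.0040). Of 34 interferon-response genes 18 were lower and 1 higher, with a median of -0.38. Zbp1, a sensor of nucleic acids, fell from 122, 127 and 126 CPM to 59.2, 63.7 and 50.5 CPM (adjusted p = 2.4e-05), and the guanylate-binding proteins Gbp3 (149.5 ± 19.2 against 75.6 ± 7.19 CPM) and Gbp5 (26 ± 1.42 against 9.91 ± 1.33 CPM) also fell.

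Most genes of antigen presentation by MHC class II were lower. None of the 17 genes was called higher and 12 were called lower (median -0.75). MHC class II protein was the sort gate, so lower RNA within cells and cells that moved into or out of the gate cannot be told apart. The regulator Ciita was at 164, 176 and 171 CPM in the WT and 126, 99.6 and 78.2 CPM in the KO (adjusted p = 7.3e-04). H2-Ob, a chain of the DO modulator that is best known from B cells, showed the largest fall of the list, from 15.8, 15.9 and 19.6 CPM to 1.83, 0.789 and 1.12 CPM (-3.80 ± 0.23, adjusted p = 3.5e-10). Peptide loading by H2-DM was represented by H2-DMa (205 ± 15.6 against 104 ± 8.79 CPM) and H2-DMb1 (162 ± 6.82 against 93.1 ± 4.34 CPM). Of 26 genes of MHC class I presentation 9 were lower (34.6%) and 5 higher (19.2%), beside 15.8% and 18.9% over all genes. The share higher was thus near that over all genes. The higher count was 3 without WT pool 3. The peptide transporter chain Tap2 fell from 137, 155 and 147 CPM to 56.7, 49.6 and 56.3 CPM (-1.43 ± 0.14, adjusted p = 2.4e-07) and the class I regulator Nlrc5 from 129 ± 16.8 to 73.6 ± 7.20 CPM, while the trimming protease Erap1 rose from 67.4 ± 6.30 to 113 ± 4.67 CPM. The class I chains H2-K1 (adjusted p = 0.35) and B2m (adjusted p = 0.29) were not called. Of 23 ligands that stimulate or restrain T cells 10 were lower and 7 higher (median -0.06), and their sum averaged 2704 CPM over the WT libraries and 3425 CPM over the KO libraries. The higher count was 4 without WT pool 2 or WT pool 3, under RLE or upper quartile scaling, with only the 6 mTEClo libraries and in thinned libraries. Of these ligands Cd200 fell from 67.7, 59.3 and 53.8 CPM to 14.4, 10.8 and 13.9 CPM (adjusted p = 8.4e-08), and Btn2a2, a butyrophilin, from 4.90, 4.14 and 4.91 CPM to 0.676, 0.113 and 0.357 CPM (adjusted p = 2.3e-05).

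Of 12 genes of immature medullary cells 7 were lower and 0 higher. Of 12 genes of mature medullary cells 7 were lower too and 2 higher. In both lists 58.3% were lower, beside 15.8% over all genes. The lower count of mature genes was 4 without KO pool 6, and none was higher without KO pool 4 or any 1 WT pool or under RLE or upper quartile scaling. It was 1 without KO pool 5 or KO pool 6, with DESeq2, with no filter, with only the 6 mTEClo libraries and in thinned libraries. Ccl21a, whose reads are shared among near-identical copies, was at 1528, 1576 and 1535 CPM in the WT and 303, 691 and 549 CPM in the KO. The basal stem cell factor Trp63 was at 410.5 ± 14.2 against 254 ± 10.9 CPM, and the laminin receptor chain Itga6 at 258 ± 14.8 against 127 ± 13.3 CPM. Of 13 cortical genes 10 were higher (76.9%, beside 18.9% over all genes) and 1 lower. The lower count was 2 without WT pool 3, under RLE and upper quartile scaling, with DESeq2, with no filter, with only the 6 mTEClo libraries and in thinned libraries. Psmb11, the thymoproteasome subunit of cortical cells, was at 17.6, 20.3 and 14.9 CPM in the WT and 93.6, 60.3 and 47.7 CPM in the KO (adjusted p = 3.8e-05), beside 232 ± 78.4 CPM in WT cTEC. Kitl, the stem cell factor, was the cortical gene with the largest fold, from 5.72, 5.57 and 4.02 CPM to 32, 24.7 and 24.2 CPM. A share of cTEC in the KO sort was not tested. The remaining TEC transcription factors were divided, with Isl1 (197 ± 20.01 against 80.4 ± 5.84 CPM) lower and Pax1 (100.2 ± 18.2 against 187 ± 5.74 CPM) and the forkhead factor Foxa1 (23.8 ± 7.54 against 95.1 ± 1.44 CPM) higher.

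Tuft cells sense tastants and parasite products through a taste transduction cascade. 13 of the 14 genes of that cascade were higher and none lower (median 0.99). Pou2f3, the factor that specifies tuft cells, was at 123, 84.7 and 91.9 CPM in the WT and 203, 201 and 208 CPM in the KO (1.03 ± 0.19, adjusted p = 2.7e-04). The sweet and umami receptor chain Tas1r3 rose from 23.5, 14.6 and 18.4 CPM to 71.3, 64.4 and 53.7 CPM (1.74 ± 0.23, adjusted p = 7.7e-06), and the phospholipase Plcb2 from 231, 148 and 178 CPM to 357, 366 and 388 CPM. WT pool 1 was the highest WT library for each of these 3 genes and still lay below every KO library. The exception was Gnat3, the taste G protein, at 971, 595 and 655 CPM and 847, 889.6 and 912 CPM (adjusted p = 0.20), whose WT pool 1 lay above all KO libraries. Without that library Gnat3 was higher too (0.50 on the log2 scale, adjusted p = 0.0064). Of 16 tuft effector genes 10 were higher, among them the leukotriene enzyme Alox5 (156 ± 37.7 against 342 ± 35.2 CPM) and the prostaglandin enzymes Ptgs1 (155 ± 41.8 against 338 ± 3.41 CPM) and Hpgds (77.8 ± 18.1 against 153 ± 8.77 CPM). The inducible cyclooxygenase Ptgs2 was the 1 that fell, from 41.6, 25 and 37.5 CPM to 15.6, 15 and 14.1 CPM.

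The bitter receptors did not follow the cascade. Tas2r proteins are the bitter taste receptors that signal through the same cascade, and of 31 tested 11 were lower and 4 higher (median -0.89). Tas2r102 fell from 23.3, 19.7 and 19.9 CPM to 3.79, 4.79 and 4.44 CPM (-2.27 ± 0.27, adjusted p = 3.0e-06), and Tas2r131 from 7.97, 6.73 and 9.52 CPM to 1.08, 1.30 and 1.33 CPM (-2.69 ± 0.34). Tas2r119 was at 7.97, 2.85 and 2.97 CPM in the WT and 0.135, 0.394 and 0.102 CPM in the KO. Tas2r138 was the most abundant of those that fell, at 80.8, 50.6 and 50.9 CPM against 19.7, 16.8 and 17.3 CPM. The 4 that rose were Tas2r108, Tas2r113, Tas2r126 and Tas2r117. Tas2r108 rose from 43.5, 26.3 and 30.8 CPM to 98.2, 111 and 113 CPM (1.68 ± 0.20, adjusted p = 2.8e-06) and Tas2r113 from 21.1, 13.5 and 15.8 CPM to 46.6, 48.4 and 54.3 CPM. The call of Tas2r117 was lost without KO pool 5, KO pool 6 or WT pool 2 (adjusted p = 0.062, 0.064 and 0.098). Tas2r105, the most abundant, was not called (88 ± 14.1 against 98 ± 14 CPM, adjusted p = 0.52). Reads between close members of this family are uncertain. With only the 6 mTEClo libraries fitted, 17 bitter receptors were lower.

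**Figure D3:**
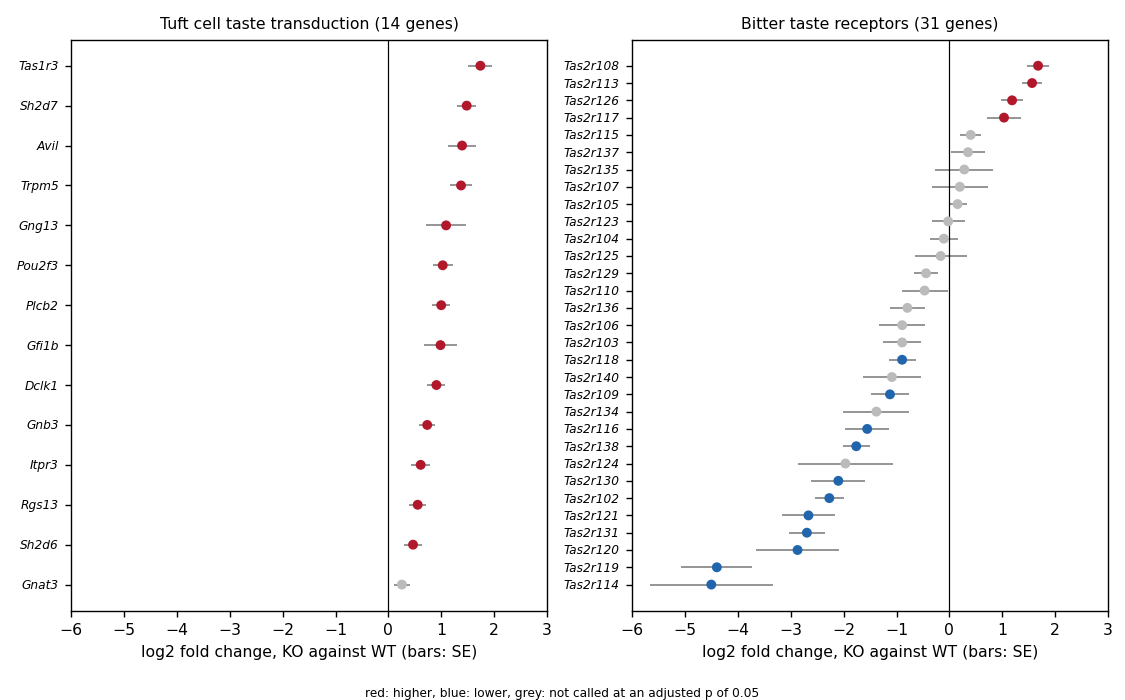
Log2 fold change of each tuft taste transduction gene (left, 14 genes) and each bitter taste receptor (right, 31 genes) in KO against WT mTEClo, with bars of 1 SE. Red is called higher, blue lower and grey not called; the left panel holds 13 higher genes and Gnat3 not called, and the right panel spans 4 higher and 11 lower receptors.

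Genes of surface and secretory epithelia were higher more often than lower. Of 23 genes of keratinocyte differentiation 12 were higher and 2 lower (median 0.66). Involucrin (Ivl), which forms the cell envelope, rose from 14.3, 5.18 and 13.5 CPM to 37.5, 35.8 and 40.5 CPM (adjusted p = 7.1e-04), the envelope protein Sprr1a from 80.4, 88.7 and 81.8 CPM to 201, 235 and 241 CPM (adjusted p = 1.4e-06) and the protease inhibitor Spink5 from 239.6, 204 and 249 CPM to 464, 545 and 558 CPM (adjusted p = 8.2e-05). The keratin Krt10 (67.6 ± 11 against 40.7 ± 9.78 CPM) and the desmoglein Dsg1a (81.1 ± 3.41 against 31.3 ± 3.95 CPM) were the 2 that fell. Krt10 was not called without KO pool 4, KO pool 6, WT pool 2 or WT pool 3 (adjusted p from 0.0503 to 0.13). Of 11 genes of mucus and airway secretory cells 7 were higher and 1 lower. The goblet cell factor Spdef was at 7.66, 4.66 and 5.80 CPM in the WT and 18.6, 19.9 and 20.6 CPM in the KO, the club cell protein Scgb1a1 at 7.25, 8.81 and 8.92 and 25.4, 34 and 37.2 CPM, and Clca1 at 25.9, 12.2 and 17 and 127, 109.8 and 122 CPM. The airway protein Bpifa1 was the 1 that fell, from 137, 193 and 315 CPM to 33.5, 69.96 and 124 CPM. Of 22 genes of simple epithelium 13 were higher and 2 lower, and 8 were higher without WT pool 3. Without KO pool 4, KO pool 5, WT pool 1 or WT pool 2 only 1 was lower. The keratins were split within this group, with Krt19 higher (234 ± 45.9 against 817 ± 90.3 CPM) and Krt7 lower (1466 ± 105 against 799 ± 79.7 CPM).

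Genes of gut and liver, peptide hormone genes and muscle genes were lower more often than higher. None of 21 enterocyte and hepatocyte genes was higher and 11 were lower. Reg3g, an antibacterial lectin of the gut, fell from 1425, 1157 and 1389 CPM to 176, 373 and 437 CPM (adjusted p = 1.1e-05), the apolipoprotein Apoa4 from 27, 24.2 and 36.7 CPM to 6.49, 9.58 and 6.12 CPM and the acute-phase protein Saa3 from 40.4, 38.9 and 92.8 CPM to 8.99, 8.62 and 8.05 CPM. Of 30 peptide hormone genes 14 were lower and 1 higher, and 7 were lower without WT pool 3. Penk, the enkephalin precursor (13.3 ± 5.13 against 5.02 ± 0.618 CPM), and Nts, neurotensin (2.86 ± 0.616 against 0.682 ± 0.200 CPM), fell, and Cck, cholecystokinin, was the 1 that rose, from 3.47, 5.18 and 5.95 CPM to 11.2, 18.6 and 13.7 CPM (adjusted p = 2.3e-04). Of 19 neuroendocrine genes 6 were higher (31.6%) and 4 lower (21.1%), both above the 18.9% and 15.8% over all genes. Of 5 parathyroid genes 2 were higher and 1 lower, and no direction is read from so few. Granule proteins of neuroendocrine cells were split, with Chgb higher (18.9 ± 3.92 against 61 ± 17.7 CPM) and Scg2 lower (46.3 ± 17.3 against 11 ± 0.814 CPM). Of 22 muscle genes 9 were lower, among them the muscle actin Actc1 (21.5 ± 3.52 against 7.26 ± 2.10 CPM), the calcium release channel Ryr1 (6.37 ± 0.479 against 1.46 ± 0.516 CPM) and the receptor chain Chrna1 (4.11 ± 0.781 against 1.02 ± 0.240 CPM), an autoantigen of myasthenia gravis. The myosin Myh8 was the 1 that rose, from 0 reads in WT to 54 reads in KO, which is at least 8.36-fold higher when WT is set to 3 reads over its libraries. Of 23 ciliated cell genes 3 were higher and 3 lower, with Hydin, a protein of motile cilia, rising from 2.76, 3.76 and 4.91 CPM to 22.7, 25.6 and 23.6 CPM. The lower ciliated count was 5 without WT pool 1, 6 under RLE and upper quartile scaling, with no filter and in thinned libraries, 7 with DESeq2 and 8 with only the 6 mTEClo libraries, where 5 were higher.

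**Figure D4:**
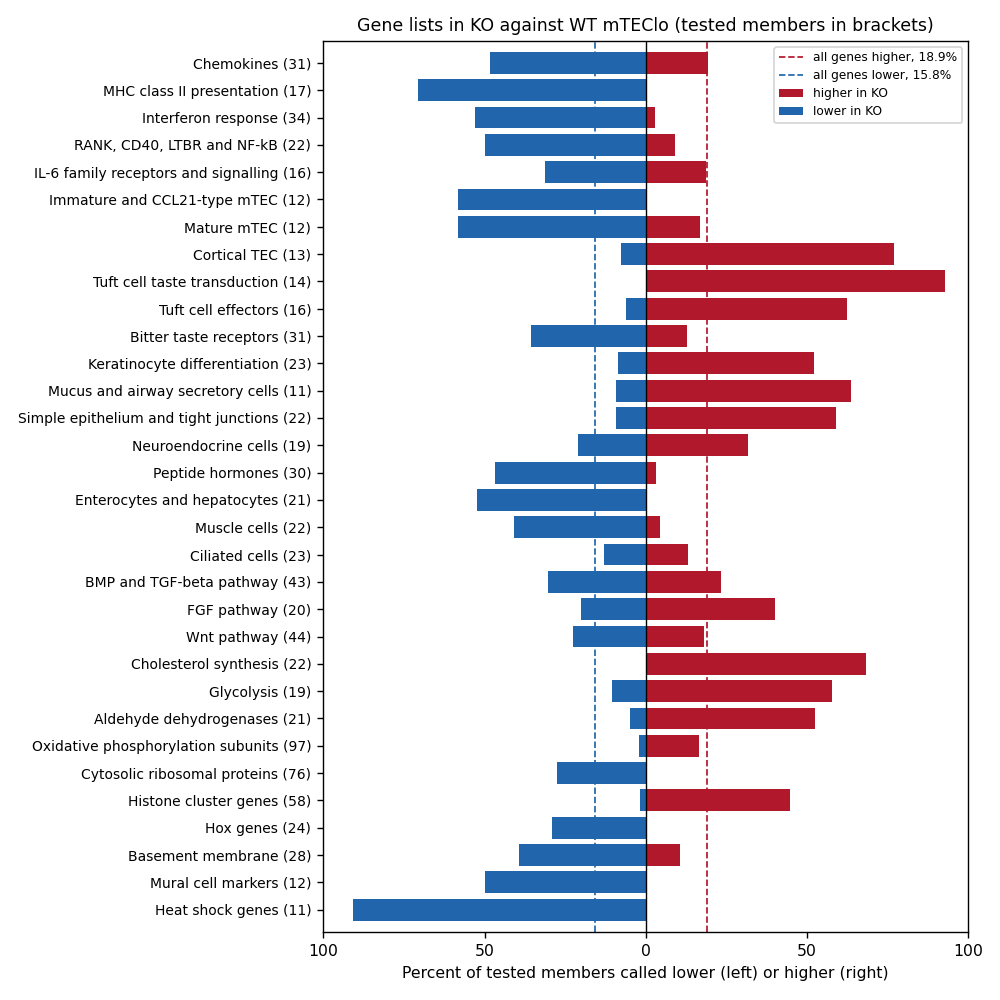
Share of the tested members of 32 gene lists that were called higher (red, to the right) or lower (blue, to the left) in KO against WT mTEClo, in percent. Dashed lines mark the shares over all genes (18.9% higher, 15.8% lower); tuft taste transduction, cortical TEC and cholesterol synthesis reach far to the right, and heat shock and MHC class II genes far to the left.

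Genes of signalling pathways were called in both directions. The shares called in the Wnt and Notch lists (18.2% higher in both, 22.7% and 13.6% lower) were near the 18.9% and 15.8% over all genes, and nothing is read from their counts. In the BMP and TGF-beta pathway, which uses secreted ligands, kinase receptors and SMAD proteins, 10 of 43 genes were higher and 13 lower. Among ligands, Bmp2 fell (27.2 ± 4.51 against 13.6 ± 2.62 CPM), Tgfb2 (17.1 ± 1.69 against 30.6 ± 0.703 CPM) and Tgfb3 (46.9 ± 7.55 against 89.5 ± 10.4 CPM) rose, and Inhba, an activin subunit, rose from 0.511, 0.259 and 0.892 CPM to 4.60, 3.72 and 5.91 CPM. Chrdl1, a secreted BMP antagonist, rose from 19.6, 11.5 and 14 CPM to 120.1, 133 and 155 CPM (3.17 ± 0.19, adjusted p = 3.2e-10). Several genes that BMP signals commonly induce were lower. Id1 was at 235, 268 and 228 CPM in the WT and 42, 47.7 and 50.3 CPM in the KO (-2.38 ± 0.14, adjusted p = 3.8e-10), Id3 at 864, 867 and 729.8 and 222, 269 and 273 CPM, Id2 at 468, 539 and 468 and 139.6, 204 and 195 CPM and the inhibitor Smad7 at 17, 19.9 and 17 and 6.76, 8.0 and 7.85 CPM. Smad6, another inhibitor, was not called (28.2 ± 3.03 against 28.1 ± 2.13 CPM, adjusted p = 0.99).

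Of 20 FGF pathway genes 8 were higher and 4 lower, and 5 were higher without WT pool 3. The receptors moved apart. Fgfr2, the epithelial receptor that thymus growth depends on, fell from 218, 230.1 and 204 CPM to 92, 82.9 and 86 CPM (-1.32 ± 0.10, adjusted p = 1.0e-08), Fgfr4 fell from 11.2 ± 1.70 to 1.41 ± 0.353 CPM, and Fgfr1 rose from 7.97, 8.55 and 12.8 CPM to 48.9, 43 and 43.1 CPM (2.22 ± 0.22, adjusted p = 2.7e-07). The feedback inhibitor Spry2 was lower (20.4 ± 2.30 against 8.11 ± 1.43 CPM) and the ligand Fgf1 higher (19.6 ± 1.89 against 45.8 ± 5.96 CPM). Of 44 Wnt pathway genes 8 were higher and 10 lower. Sfrp1, a secreted Wnt inhibitor, fell from 242, 271 and 238 CPM to 61, 54.4 and 44.6 CPM (-2.23 ± 0.18, adjusted p = 1.1e-08), while Nkd1, an intracellular inhibitor, rose from 7.97, 2.33 and 4.31 CPM to 24.1, 27.1 and 29.98 CPM and the ligand Wnt7b from 8.10 ± 2.30 to 28.1 ± 5.73 CPM. Hedgehog ligands rose, Ihh from 1.33, 2.72 and 1.78 CPM to 8.05, 6.42 and 10.4 CPM (adjusted p = 0.013) and Dhh from 2.12 ± 1.46 to 6.14 ± 0.542 CPM, while the coreceptors Cdon (9.11 ± 0.710 against 4.39 ± 0.478 CPM), Boc (179 ± 6.13 against 104 ± 17.5 CPM) and Gas1 (645 ± 84.7 against 342 ± 19.7 CPM) fell. Ihh was not called without WT pool 1 (adjusted p = 0.056). The Hedgehog list had 2 of 12 genes higher (16.7%) and 4 lower (33.3%). In the retinoic acid pathway 5 of 18 genes were higher and 2 lower. The synthetic enzyme Aldh1a1 rose from 2.76, 2.46 and 2.23 CPM to 21.5, 27.1 and 25.3 CPM (3.29 ± 0.23, adjusted p = 2.3e-09), and the degrading enzyme Cyp26a1 fell from 8.79 ± 3.46 to 2.35 ± 0.144 CPM. The Notch target Hey2 fell from 11.5, 13.7 and 13.5 CPM to 2.10, 2.25 and 1.73 CPM, in a pathway with 4 of 22 genes higher and 3 lower. The higher Notch count was 1 without KO pool 4, 2 without WT pool 2, 1 without WT pool 3 and 1 in thinned libraries, and the lower count 5 under upper quartile scaling and with DESeq2 and 7 with only the 6 mTEClo libraries.

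Genes of sterol, glucose and aldehyde metabolism were called higher more often than lower. Of 22 genes of cholesterol synthesis 15 were higher and none lower (median 0.72), a share above the 35.7% of the most abundant class of genes. The squalene oxidase Sqle was at 74.9, 64.4 and 57.7 CPM in WT pools and 155, 126 and 137 CPM in KO pools (1.08 ± 0.12, adjusted p = 9.6e-07) and the demethylation enzyme Msmo1 at 31.6, 23.3 and 21 and 67.6, 65.5 and 62.3 CPM (adjusted p = 1.7e-06). The transcription factor of the pathway, Srebf2 (84.2 ± 13.3 against 108 ± 18.7 CPM, adjusted p = 0.062), was not called. It was called higher without KO pool 5 (adjusted p = 0.045) and without WT pool 1 (adjusted p = 0.021). Of 19 glycolysis genes 11 were higher and 2 lower, with 7 higher without KO pool 4 or without WT pool 2. The glucose transporter Slc2a1 rose from 56.7, 44.8 and 41.3 CPM to 96.9, 96.3 and 97 CPM (adjusted p = 6.4e-05), lactate dehydrogenase Ldha from 386 ± 42.6 to 690.1 ± 69.4 CPM and the aldolase Aldoc from 9.60, 4.92 and 7.44 CPM to 38.5, 38.8 and 32.9 CPM. Aldehyde dehydrogenases were higher for 11 of 21 genes and lower for 1. Glutathione S-transferases, which conjugate toxins, were higher for 10 of 23 and lower for 4. Gstm1 was among those higher (63.6 ± 10.5 against 195 ± 37.2 CPM). The lower count was 2 without KO pool 4 or without WT pool 3. Of 97 nuclear oxidative phosphorylation genes 16 were higher (16.5%, below the 18.9% over all genes) and 2 lower. Of 76 cytosolic ribosomal protein genes 21 were lower and none higher. Their lower count was 8, 11, 7 and 10 without KO pool 4, KO pool 6, WT pool 2 and WT pool 3, and 38 when only the 6 mTEClo libraries were fitted.

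Of the 10 tested genes of Kat7 and its complex partners 3 were higher and 2 lower, Kat7 included. The 3 JADE scaffolds were higher, Jade1 at 56.9, 43.9 and 52.6 CPM in the WT and 71.7, 69.3 and 77.7 CPM in the KO (adjusted p = 0.0034), Jade2 at 7.76, 8.03 and 7.88 and 13, 11.7 and 12.9 CPM (adjusted p = 0.0055) and Jade3 at 7.46, 5.18 and 4.46 and 15.9, 10.4 and 13.2 CPM (adjusted p = 4.9e-04). The scaffold Brpf3 was lower (32.8 ± 3.60 against 19.3 ± 2.10 CPM, adjusted p = 0.0011), and Brpf1 (29.3 ± 4.03 against 29.5 ± 3.92 CPM) and Meaf6 (31.7 ± 5.88 against 24.7 ± 5.10 CPM) were not called, though Meaf6 was lower without WT pool 1 (adjusted p = 0.040). Of 14 other acetyltransferase genes 1 was higher (Ncoa1, 59.7 ± 5.94 against 89 ± 10.6 CPM) and 2 were lower (Kat2a, 94.9 ± 2.53 against 64.9 ± 8.49 CPM, and Crebbp, 130.0 ± 10.9 against 95.9 ± 11.6 CPM). These shares, 7.14% and 14.3%, were below the 18.9% and 15.8% over all genes. Crebbp was not called without KO pool 6 (adjusted p = 0.079) or WT pool 2 (adjusted p = 0.082). The Polycomb enzyme Ezh2 fell from 22.8, 28.2 and 27.2 CPM to 13.6, 11.6 and 8.87 CPM (-1.20 ± 0.16, adjusted p = 9.0e-06), and its paralog Ezh1 was higher (66.7 ± 7.27 against 86 ± 5.63 CPM, adjusted p = 0.042). The call of Ezh1 was lost under RLE and upper quartile scaling, with DESeq2, in thinned libraries and without KO pool 4, KO pool 6, WT pool 2 or WT pool 3 (adjusted p from 0.063 to 0.16 without 1 of these libraries). Histone genes of the clusters were often higher. 26 of 58 were higher and 1 lower (none without any 1 KO pool or without WT pool 2; median 0.97). H2bc8 rose from 18.2, 15 and 17.7 CPM to 62.4, 72.8 and 71.6 CPM (adjusted p = 1.2e-08) and H4c3 from 8.48, 4.92 and 6.25 CPM to 29.1, 32.8 and 32.6 CPM (adjusted p = 8.5e-06). Reads between similar histone genes are uncertain, most transcripts of these genes carry no poly(A) tail, and the cDNA was primed on poly(A). These genes are usually transcribed in S phase, and the part of the cell cycle in their levels was not tested. Of 46 DNA replication genes 4 were higher (8.7%) and 7 lower (15.2%), beside 18.9% and 15.8% over all genes. Mki67 (16.6 ± 0.593 against 14.8 ± 3.12 CPM, adjusted p = 0.58) and Top2a (16.6 ± 4.02 against 16.3 ± 2.90 CPM, adjusted p = 0.96) were not called. The lower replication count was 4, 4, 4 and 2 without KO pool 4, KO pool 5, KO pool 6 and WT pool 3. Hox genes were lower for 7 of 24 and higher for none, with Hoxb2 at 10.5, 15.2 and 14 CPM in the WT and 0.406, 1.07 and 2.04 CPM in the KO (adjusted p = 1.6e-06). The Hox count was 4 without KO pool 5, KO pool 6 or WT pool 3.

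The families of Ogn and Cnmd held genes called in both directions. Small leucine-rich proteoglycans bind collagen fibrils and growth factors. Of 13 tested, 5 were higher (38.5%) and 1 lower (7.69%), beside 18.9% and 15.8% over all genes. Beside Ogn, the cartilage protein Chad rose from 4.19, 1.68 and 2.83 CPM to 22.9, 43 and 42 CPM (adjusted p = 3.6e-05), Prelp from 11.8, 13 and 9.52 CPM to 61.5, 70.7 and 67.9 CPM (adjusted p = 2.9e-08) and Fmod from 16.3 ± 6.21 to 36.9 ± 12.4 CPM. Of 19 cartilage genes 3 were higher (15.8%, below the 18.9% over all genes) and 5 lower (26.3%). Sox6, a transcription factor of chondrocytes, was higher, at 1.90 ± 0.511 CPM in the WT and 11.8 ± 0.709 CPM in the KO. The structural genes Col2a1 (28.5 ± 2.90 against 12.6 ± 4.18 CPM), Col9a2 (6.19 ± 0.465 against 1.38 ± 0.310 CPM) and Matn1 (21.4 ± 4.0 against 3.17 ± 1.10 CPM) were lower. Col2a1 was not called without KO pool 6 (adjusted p = 0.057).

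Inhibitors of the cell cycle and targets of p53 were called in both directions. Of 30 such genes 11 were higher (36.7%) and 5 lower (16.7%), beside 18.9% and 15.8% over all genes. The share lower was thus near that over all genes. The inhibitor Cdkn1c fell from 155, 140.0 and 154 CPM to 68.8, 57.6 and 64.5 CPM (adjusted p = 5.8e-05) and Cdkn1b from 17.1 ± 4.36 to 9.73 ± 1.34 CPM, while the p53 target Cdkn1a was at 280.0 ± 17.6 and 360.4 ± 22.9 CPM (0.36 ± 0.11, adjusted p = 0.018). Cdkn1a was not called without KO pool 5, WT pool 1 or WT pool 2 (adjusted p = 0.069, 0.055 and 0.051), and Cdkn1b not without WT pool 3 (adjusted p = 0.061). The p53 targets Ccng1 (113 ± 15.1 against 214 ± 7.78 CPM) and Plk2 (262 ± 73.5 against 559 ± 57.5 CPM) were higher. Of 31 mitosis genes 5 were higher (16.1%, below the 18.9% over all genes) and none lower. The higher count was 3, 3 and 2 without KO pool 4, WT pool 1 and WT pool 2.

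Several contractile genes were lower, and were named after their values were seen. The actin-binding protein Tagln was at 404, 339.6 and 439 CPM in the WT and 55.4, 51.4 and 45.1 CPM in the KO (-2.96 ± 0.14, adjusted p = 2.7e-11), the tropomyosin Tpm2 at 749, 820.4 and 860.1 and 204, 189.9 and 155 CPM, caldesmon (Cald1) at 318, 363 and 427 and 76.3, 82.2 and 64.9 CPM and the myosin light chain Myl9 at 114, 73.8 and 97.4 and 24.6, 17 and 21.6 CPM. The secreted matrix protein Thbs1 was at 56.8 ± 5.27 against 15.4 ± 2.71 CPM and Ccn1 at 2616 ± 346 against 899 ± 20.5 CPM. Of 44 collagen genes 11 were lower and 8 higher (4 without KO pool 4, WT pool 2 or WT pool 3, and 5 without KO pool 5 or WT pool 1). Collagens of type V fell, Col5a1 from 54.2, 68.5 and 66.3 CPM to 9.60, 7.10 and 7.04 CPM (adjusted p = 1.8e-09) and Col5a2 from 49.3 ± 4.34 to 7.08 ± 0.700 CPM. Of 28 basement membrane genes 11 were lower, 3 higher and 14 not called, with the laminin chain Lama4 at 38.2 ± 0.469 against 14 ± 2.04 CPM and the collagen Col4a2 at 127 ± 15.6 against 76 ± 5.97 CPM. The 3 that rose were Npnt, an integrin ligand of epithelial basement membranes (17.4, 12.7 and 11.5 CPM to 103, 81.9 and 77.4 CPM, adjusted p = 2.4e-08), Fras1 and Frem2. Pcdh7, a protocadherin, fell from 129.9, 136 and 144 CPM to 13.4, 10.4 and 11.5 CPM (-3.54 ± 0.15, adjusted p = 3.6e-12), and Sema6d, a guidance protein, from 86.2, 95.6 and 87.9 CPM to 9.67, 8.45 and 6.73 CPM (-3.44 ± 0.17, adjusted p = 4.4e-11).

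Some markers of other cells were called as well, beside 18.9% of all genes higher and 15.8% lower. Of 12 mural cell markers 6 were lower and none higher, and their summed level was 949 to 1201 CPM in the WT libraries and 378 to 526 CPM in the KO libraries. The pericyte marker Rgs5 was at 82.3, 83.5 and 90.6 CPM and 12, 10.9 and 10.2 CPM. Tagln, named above as a contractile gene, is also 1 of the 12 markers and part of their sum. The list is therefore not independent of the contractile genes. None of the 12 was at 0 in all libraries, and the part of mural cells in the lower level of these contractile genes was not tested. Of 5 mesothelial markers 2 were higher and 1 lower, and their summed level was 370 to 403 CPM in WT and 140 to 168 CPM in the KO, mostly through Msln (376 ± 15.7 against 139 ± 12 CPM). None of them was higher without KO pool 6, and 1 was without each WT pool. Of 11 fibroblast markers 5 were higher (45.5%), 4 of them by at least 2-fold, and 1 lower (9.09%). Their summed level was 303 to 391 CPM in WT and 486 to 548 CPM in the KO. The defining marker Pdgfra, 1 of the 11, was low at 2.73 ± 0.309 and 3.72 ± 1.46 CPM. The higher fibroblast count was 3 without KO pool 4. Of 16 thymocyte markers 3 were higher (18.8%) and 1 lower (6.25%), neither share above that over all genes. Their summed level was 58.4 to 70.4 CPM in WT and 85.2 to 99.9 CPM in the KO. Cd3e was at 0.826 ± 0.274 and 2.46 ± 1.54 CPM (adjusted p = 0.076, and 0.0226 without KO pool 5, 0.0418 with DESeq2 and 0.037 with only the 6 mTEClo libraries). Of 13 tested macrophage and dendritic cell markers 2 were higher (15.4%) and 1 lower (7.69%), both below the shares over all genes. The sums overlapped (135 to 156 CPM against 134 to 160 CPM). The lower marker, C1qa, was not called without KO pool 4, KO pool 6, WT pool 1 or WT pool 2 (adjusted p from 0.061 to 0.082). Clec9a was at 0 in all 6 libraries, and Adgre1 was at 1.01 ± 0.489 and 0.448 ± 0.343 CPM. The pan-leukocyte gene Ptprc was higher, at 6.23, 4.66 and 5.95 CPM in the WT and 24.7, 26.4 and 24.3 CPM in the KO (adjusted p = 2.6e-07), and tuft cells are known to express it. Of 8 tested endothelial markers 3 were higher (37.5%), 2 of them by at least 2-fold, and none lower. Their summed level was 49.5 to 75.9 CPM in WT and 104 to 133 CPM in the KO. Pecam1, 1 of the 8, was low at 2.38 ± 0.709 and 3.35 ± 1.01 CPM. The part of these cells in other results was not tested. Of 11 heat shock genes 10 were lower, with the co-chaperone Bag3 falling from 154, 207 and 168 CPM to 38.3, 26.8 and 33.3 CPM (adjusted p = 4.5e-10). These genes respond to handling of cells, and their relation to the other changes was not tested.

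The effect in mTEClo was set against that in the other sorts of the same pools by testing the difference of the KO effects. It differed from the effect in mTEChi for 2613 genes (13.5%), of which 1312 were more positive in mTEClo (6.78%) and 1301 more negative (6.72%). It differed from the effect in cTEC for 5032 genes (26.0%), 3184 more positive (16.4%) and 1848 more negative (9.54%). For the 12 genes shown, chosen for their fold in mTEClo, the effect was larger there than in mTEChi for 10 and larger than in cTEC for 4. For Kcnj1 the difference from mTEChi was not called without KO pool 6, WT pool 2 or WT pool 3 (adjusted p = 0.078, 0.079 and 0.069). Kcnj1 differed from cTEC without WT pool 1 (adjusted p = 0.038), and Brinp1 differed from mTEChi without KO pool 6 (adjusted p = 0.011) and from cTEC without KO pool 5 (adjusted p = 0.024). Ogn was at 4.95 ± 0.184 CPM in WT mTEChi and 1.85 ± 0.465 CPM in KO mTEChi, and at 8.83 ± 1.60 and 30.3 ± 5.02 CPM in WT and KO cTEC. Cnmd was at 66.2 ± 6.71 and 131 ± 14 CPM in WT and KO mTEChi and at 8.17 ± 1.38 and 395 ± 54.8 CPM in WT and KO cTEC. Its KO effect in mTEClo exceeded that in mTEChi by 4.42 ± 0.26 (log2, adjusted p = 3.3e-09) and differed from that in cTEC by -0.18 ± 0.28 (adjusted p = 0.69). Cxcl14 was at 5.50 ± 1.84 and 0.947 ± 0.500 CPM in WT and KO mTEChi and at 22.1 ± 6.16 and 0.367 ± 0.281 CPM in WT and KO cTEC. Mical1 was at 4.15 ± 0.464 and 0.922 ± 0.242 CPM in mTEChi and at 6.55 ± 1.70 and 1.79 ± 0.827 CPM in cTEC, and its effect in mTEClo was the more negative against both.

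**Figure D5:**
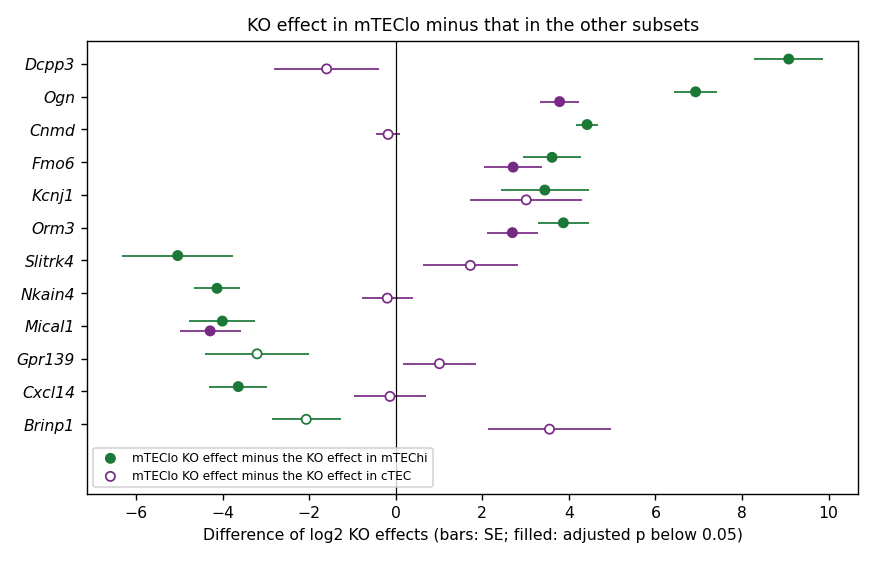
Difference between the log2 KO effect in mTEClo and that in mTEChi (green) or cTEC (purple) for the 6 most raised and 6 most lowered genes in mTEClo, with bars of 1 SE. Filled circles have an adjusted p below 0.05 from edgeR; 10 of the 12 differences against mTEChi and 4 of those against cTEC are filled.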

How the data were processed

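RNA from FACS-sorted thymic epithelial cells was amplified with SMART-Seq v4, made into Nextera XT libraries and sequenced in paired 75 base reads, per the labels' protocols. These libraries keep neither strand nor molecular identifiers, so a gene and its antisense neighbour cannot be told apart. The authors deposited whole-number counts per Entrez gene from featureCounts on mm10, per the submitters' processing notes. Which aligner and version were used and how multimapping reads were treated is not given in the sources used here, and genes with near-identical copies are uncertain. Each file held 27179 genes, of which 1312 had no symbol (35 of those took one from RefSeq, GRCm38.p6).

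The counts of all 18 libraries (6 groups of 3 mouse pools) were scaled by TMM and fitted with edgeR 4.0.16 in R 4.3.3 (filterByExpr with a minimum count of 10, quasi-likelihood test, Benjamini-Hochberg adjustment, threshold 0.05, 12 residual degrees of freedom). Every adjusted p in the text is from this fit, a refit of it or, where named, DESeq2. Differences of KO effects between subsets were interaction contrasts. The pools are separate mice per the labels. Libraries of 1 pool from different subsets come from the same mice, and their deviations from the group means correlated by 0.052 to 0.239 between mTEClo and mTEChi and by 0.037 to 0.109 between mTEClo and cTEC. Within mTEClo the Pearson correlation of log2 CPM was 0.9917 to 0.992 among WT libraries, 0.9949 to 0.9962 among KO libraries and 0.9696 to 0.9777 between them. The fit was tested on simulated data with far fewer changed genes than were called here. That test does not cover the scaling where many genes change.

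Named genes were Kat7, Aire, the 12 most raised and 12 most lowered genes (called, no overlap, 5 CPM or more), the first 2 members and up to 6 members by adjusted p of each of 58 lists, and up to 4 of each of 33 families. Predicted genes, Xist and genes on chromosome Y were left out of the 12 most raised and 12 most lowered. Others were named where a count turned on them or were chosen after their values were seen. The lists and members were chosen with earlier results of these data known. Alternatives were RLE and upper quartile scaling, DESeq2 1.42.0, no filter, only the 6 mTEClo libraries, thinned libraries, library totals without mitochondrial, Rn45s, Lars2 and heat shock genes, each library left out, and mouse pool as a block. Bounds against groups at 0 reads used 3 reads over the group and, like all counts, cover counting error only. Promoter sequences are from RefSeq on GRCm38.p6. Some list members are not reported here by name.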

Additional observations from a re-analysis of the deposited data

Results flagged for a closer look

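The results below are differences between subsets in the KO effect, tested in edgeR's interaction contrasts for the 6 most raised and the 6 most lowered genes of mTEClo. They were chosen for their fold in mTEClo, so a smaller effect elsewhere is favoured by the choice. Values are log2 KO effects in mTEClo minus those in the other subset.

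Against mTEChi, 6 raised genes had the more positive effect in mTEClo. The differences were 9.08 for Dcpp3 (adjusted p = 3.82e-07), 6.93 for Ogn (2.66e-08), 4.42 for Cnmd (3.33e-09), 3.61 for Fmo6 (0.00113), 3.45 for Kcnj1 (0.028) and 3.87 for Orm3 (0.000154). The effect of 4 lowered genes was the more negative in mTEClo, by -5.04 for Slitrk4 (0.0127), -4.13 for Nkain4 (3.1e-05), -4.01 for Mical1 (0.00126) and -3.64 for Cxcl14 (0.000987).

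Against cTEC, 4 of the 12 genes differed. The differences were 3.79 for Ogn (4.6e-06), 2.69 for Orm3 (0.0022), 2.71 for Fmo6 (0.00552) and -4.29 for Mical1 (0.00015). Cnmd did not differ between mTEClo and cTEC in this test (-0.18 ± 0.28, adjusted p = 0.69).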

How the results depend on the processing

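No count over all genes moved by more than 1.5 times, over 13 alternatives for the counts of genes higher and lower and 9 for those of differences between subsets. Genes higher and lower in the KO numbered 3256 and 3374 under RLE scaling, 2982 and 3587 under upper quartile scaling, 3407 and 3529 with DESeq2 and 3594 and 3744 in the 6 mTEClo libraries alone, so which direction is the more frequent turns with these settings. Thinning to 3554089 reads gave 3004 and 2644. Without 1 mTEClo library the range was 2762 to 3625 higher and 2347 to 2862 lower, and at 2-fold or more 959 to 1334 and 1355 to 1606. The median of all genes stayed between -0.061 and 0.031 on the log2 scale. Of the 191 called genes among 211 named in the text, 175 kept their call under every alternative and 16 lost it under at least 1, and none changed direction. Of those 16, Epcam lost it under upper quartile scaling, in the 6 libraries alone and without WT pool 3, and Jade2 and Cdon lost it only when libraries were thinned. Counts within gene lists moved more. Thinning gave 5 against 8 collagens higher (4 under upper quartile scaling), 1 against 3 cytokines, 3 against 5 MHC class I genes, 2 against 5 mitosis genes, 2 against 4 replication genes and 5 against 8 Wnt genes higher, 2 against 1 muscle gene higher, 4 against 7 replication genes lower, 3 against 7 Hox genes lower, 1 against 2 lower for oxidative phosphorylation and for simple epithelium, and none against 1 lower for histones and small leucine-rich proteoglycans. In the 6 libraries alone 5 against 3 cartilage genes, 2 against none of the enterocyte and hepatocyte genes, 1 against none of the Hox genes, 2 against 1 muscle gene and 1 against 2 RANK and NF-kB genes were higher, and 11 against 7 replication genes and 2 against 1 macrophage and dendritic cell marker lower. DESeq2 gave 2 muscle genes higher and 2 of those markers lower, and RLE and upper quartile scaling 1 RANK and NF-kB gene higher. The shallower WT libraries limit how well low WT levels were measured.

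No paired analysis was possible because WT and KO pools share no number for the main comparison. With mouse pool as a replicate block, 3114 genes differed from mTEChi (2534 also without the block) and 5653 from cTEC (4872), against 2617 and 5023 under RLE scaling and 2569 and 4807 with no filter, and no call of the 12 genes shown changed. Without 1 library these differences numbered 1953 to 2458 and 3928 to 4852.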
